A study of Mus musculus with 34 samples.

Results

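The cytosolic ribosomal protein genes of mouse liver were followed through a series on liver tumours driven by exon-skipped forms of β-catenin. Members were taken by symbol: Rpl or Rps followed by digits, with an optional a, l or x, together with Rplp0, Rplp1, Rplp2 and Rpsa, and without Rps6k kinases, pseudogenes and mitochondrial genes. Of the 14086 genes in the table of normalized counts, 77 symbols matched, and 71 of them averaged 10 or more across the 18 libraries. These 71 members comprised 42 proteins of the large subunit and 29 of the small subunit, encoded on 18 chromosomes. The rule used symbols and the mean over all libraries, not a difference between groups, although earlier results of these data were known when it was set.

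Cancer was modelled by hydrodynamic injection, in which a large volume is injected fast so that hepatocytes take up plasmids, and total RNA was taken from frozen liver tumours. The 18 libraries fell into 6 groups: 2 wild type, 3 with the β-catenin skip 1 isoform alone, 2 with the skip 2 isoform alone, 5 labelled skip 1 isoform induced, 2 labelled skip 2 isoform induced and 4 labelled ΔN90-β-catenin induced. ΔN90-β-catenin lacks the N terminus that marks β-catenin for degradation. Below, skip1 and skip2 name the isoforms, alone or induced, and dN90 induced names the ΔN90-β-catenin group. The induced libraries are also called tumour groups, and the wild type and isoform-alone libraries non-tumour liver. The source labels state neither of these. The names were taken from the source label, since another label of the 4 skip2 samples repeats skip 1. Strain, age, sex, promoters and co-injected plasmids are not given in the sources used here. The remaining 16 of 34 samples (subtype A, subtype B and sgActin and YAPS127A) appear only in a second table of 1659 z-scored genes, which held 0 members. The labels do not tie libraries to animals, so the p-values reflect only how these samples vary among themselves, which may be technical.

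Each cytosolic ribosome is built from a small subunit, which decodes the messenger RNA, and a large subunit, which joins the amino acids, and most of their proteins are needed in equal numbers. The transcripts are known as TOP messenger RNAs because they begin with a C followed by a run of pyrimidines, and the mTOR kinase controls their translation through this tract. In hepatocytes, which secrete large amounts of plasma protein, ribosomes are abundant, and their production is known to rise when liver cells grow.

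The tract was looked for within 50 bases of the annotated start of each gene (RefSeq promoters, GRCm38.p6). It was defined as a C followed by at least 7 bases that were each C or T. The search used the coding strand, which reads as the RNA does. The tract was present in 45 of the 53 members that had a promoter entry (84.9%) and in 32.0% of all 27025 genes with an entry. A gene counted if any of its listed starts had a match. On the other strand the tract was found in 12 of the 53 members (22.6%) and in 34.4% of all these genes. Among named members, the windows of Rpl23, Rplp0, Rps3, Rps4x and Rpsa held no such run of letters. Windows of 30 bases are shown 5′ to 3′ on the coding strand for 8 named members with a match, with the tract in capitals. They are shown because this shared feature was not used to choose the set. The tract of Rps6 began 1 base before the annotated start and that of Rpl13a 2 bases after it. Others lay farther off, 46 bases before the start in Rps16 and 41 bases after it in Rpl10 and Rps19, so a match is a description and need not be where the transcript begins. Rps27l was called apart from the set in 1 comparison, a call lost in 9 alternative fits. Its window held a run of this kind, starting 12 bases before the annotated start.
Rpl5, plus strand, chr5:107900500-107900529: tacagccaCTCTTTCTCacgtcgcttgcgt
Rpl10, plus strand, chrX:74270836-74270865: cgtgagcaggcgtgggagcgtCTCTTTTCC
Rpl11, minus strand, chr4:136053358-136053387: ccggaagtCTCCCTCTCTCTTCCTgttctc
Rpl13a, minus strand, chr7:45128722-45128751: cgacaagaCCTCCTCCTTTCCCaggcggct
Rps6, minus strand, chr4:86857347-86857376: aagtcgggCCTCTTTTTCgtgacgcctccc
Rps16, plus strand, chr7:28350635-28350664: tcacacgtCCCCTCTCaggcttcgacgtca
Rps19, plus strand, chr7:24884612-24884641: cgcccgggaaaccccgtcgttCCCTTTCCC
Rps27l, plus strand, chr9:66946066-66946095: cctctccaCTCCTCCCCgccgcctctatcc

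Normalized counts are read estimates that the authors scaled between libraries. The libraries were shallow, at 361772 to 933146 estimated reads, and the deepest were the 2 skip2 induced libraries. Every member was above 0 in every library, but 12 of 71 had a median under 30 reads and the lowest value was 1 read. Hepatocyte markers were present in all groups: all 15 were detected in each, and their summed normalized counts ranged from 65280 to 85455 in the 7 non-tumour libraries and from 19433 to 56609 in the 11 induced libraries. The normalized total per library was 610688 to 694773 in the non-tumour libraries and 415528 to 524243 in the induced ones.

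The median normalized count of the 71 members was 68.0 and 82.3 in the wild type libraries. It was 62.5, 61.0 and 64.0 with skip1 alone and 69.1 and 68.7 with skip2 alone. In the skip1 induced libraries it was 66.7, 64.8, 131, 67.7 and 77.7. The skip1 induced libraries thus overlapped the non-tumour range with the exception of replicate 3, which stood far above it. The median was 88.3 and 88.8 in the skip2 induced libraries, above every non-tumour library. In the dN90 induced libraries it was 94.4, 74.5, 84.0 and 90.4, and replicate 2 fell inside the wild type range.

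The share of each library's normalized total that the members took does not change when a whole library is rescaled. It averaged 1.02% ± 0.124 (SD, n = 2) in wild type. With the isoforms alone it averaged 0.846% ± 0.0343 for skip1 (n = 3) and 0.828% ± 0.00967 for skip2 (n = 2). It averaged 1.5% ± 0.580 (n = 5) in skip1 induced, 1.51% ± 0.166 (n = 2) in skip2 induced and 1.59% ± 0.171 (n = 4) in dN90 induced libraries. The skip1 induced mean was raised by replicate 3 (2.50%). The median of that group was 1.30%, and its other libraries had 1.03% to 1.45%. Every induced library but skip1 induced replicate 2 (1.03%) was above the highest non-tumour library, wild type replicate 2 (1.11%). With albumin, the most abundant hepatocyte transcript, taken out of the total, the same means were 1.09%, 0.921% and 0.893% in the non-tumour groups and 1.55%, 1.58% and 1.62% in the induced groups. The totals without albumin still differed, at 571116 to 644579 in non-tumour and 407509 to 488857 in induced libraries. A higher share was not particular to the members. With reads scaled to library totals (voom), the median log2 difference over all genes tested was also above 0. It was 0.44 for skip1 induced against skip1 alone, 0.53 for skip2 induced against skip2 alone and 0.55 for dN90 induced against non-tumour liver. In whole tissue, fewer cells of a type and less RNA per cell cannot be told apart.

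**Figure D1:**
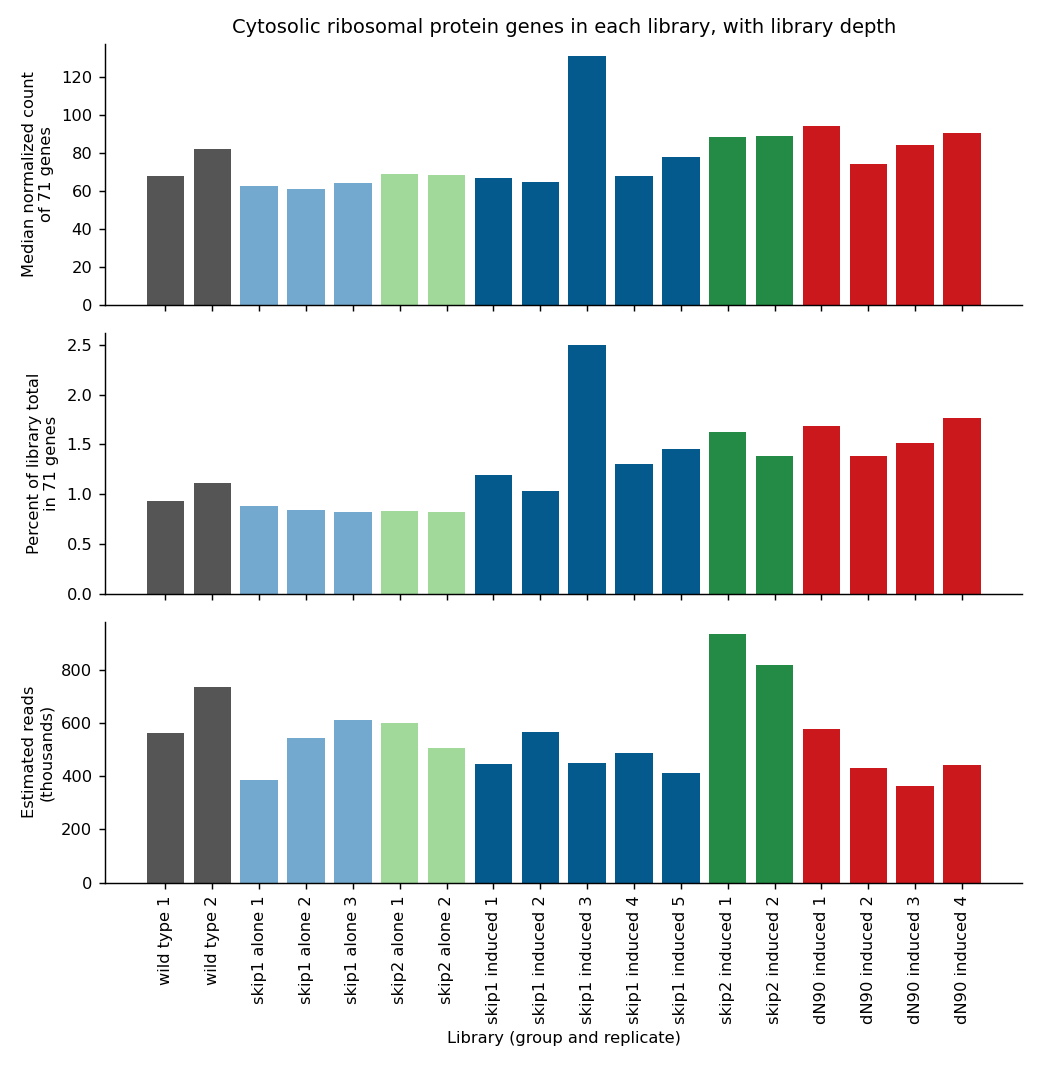
Bars give, for each of the 18 libraries, the median normalized count of the 71 ribosomal protein genes, the percent of the library's normalized total in these genes, and the estimated reads (axis divided by 1000). Skip1 induced replicate 3 stands highest in the first 2 panels (131 and 2.50%), while its depth of 447394 reads lies within the range of the others.

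Members differed widely in level. Per kilobase of spliced transcript, the mean normalized count over 18 libraries was highest for Rpl10 (354), Rpl41 (341), Rps2 (299), Rps3 (266), Rpl32 (249) and Rpl13a (232). Rplp0, the stalk protein of the large subunit on which the elongation factors land, was at 181 per kilobase, whereas its partners Rplp1 and Rplp2, which form the tip of the same stalk, were at 68.8 and 25.9. The 3 stalk genes thus differed in level although their proteins work in 1 structure. Reads of ribosomal protein genes can be shared with their many processed pseudogenes. In 12 members, Rplp2, Rps19 and Rps27l among them, values in some libraries were not whole reads within 0.001, so they carry that extra uncertainty. Whole values in the other members do not show that no reads were lost to such copies. The 2 members just inside the threshold on the mean were Rpl37 (10.2) and Rpl36a (10.7), and the 2 just outside it were Rps21 (7.93) and Rpl36 (6.69).

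Of the 6 matching genes under the threshold, Rpl26 and Rpl30 encode large subunit proteins that every ribosome uses. Rpl26 was listed at 0 in 17 libraries and at 21.3 in skip1 induced replicate 5. Rpl30 was listed at 0 in 15 libraries, at 11.9 in skip1 alone replicate 3 and at 2.07 and 2.68 in the skip2 induced libraries. An exact 0 for such a gene can be a failed estimate, so no comparison was made for either. The other 2 genes under the threshold, beside Rps21 and Rpl36, were Rps4l (1.16) and Rpl32l (0.735).

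The first comparison set the skip1 induced libraries against the skip1 isoform alone. Of 71 members, 65 had a difference above 0, and the median log2 difference was 0.31, against -0.02 over all 6592 genes tested. The control itself lay below wild type. The member median on the log2 scale averaged 5.99 ± 0.034 (SD) with skip1 alone, 6.31 ± 0.42 in skip1 induced and 6.24 ± 0.19 in wild type libraries. The induced group was not tested against wild type. One member, Rps16, passed the test (1 of 71, 1.41%), whereas 6.55% of all genes tested were called higher and 8.18% lower, so the members were not called more often than other genes. At an unadjusted p under 0.05 there were 13 members, all higher. Large and small subunit members had the same median difference to 2 decimals, 0.31 and 0.31.

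Rps16 is a small subunit protein whose tail reaches the transfer RNA in the decoding centre (chromosome 7, 28350652 to 28353155, plus strand, mm10). Its normalized counts were 54.3, 35.7 and 66.1 with skip1 alone and 72.1, 77.7, 154, 79.4 and 99 in the skip1 induced libraries. The groups did not overlap, and replicate 3 of the induced group was the highest. The log2 difference was 0.86 (SE 0.24, limma adjusted p = 0.0199), with all 5 induced libraries above all 3 others. The call was lost without skip1 alone replicate 2, the lowest library.

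For Rpl3, which lies beside the catalytic centre of the large subunit (chromosome 15, 80077791 to 80091868, minus strand), the counts were 146, 146 and 119 with skip1 alone and 207, 161, 296, 191 and 186 in skip1 induced libraries. These groups did not overlap either, and the log2 difference of 0.57 (SE 0.20) missed the threshold (limma adjusted p = 0.0627). Rpl23, a large subunit protein known to bind the p53 regulator Mdm2 (chromosome 11, 97777527 to 97782437, minus strand), had 32.9, 40.3 and 35.2 with skip1 alone and 50.6, 55.5, 58.5, 54.2 and 45.8 when induced. Its log2 difference was 0.54 (SE 0.19, limma adjusted p = 0.0639), and here replicate 3 was close to the rest. Rpl37 had the largest difference of all members, 1.29 (SE 0.45, limma adjusted p = 0.0568), at a median of only 10 reads over the 18 libraries. Its skip1 alone values were 9.87, 1.15 and 8.52, and replicate 2 was the lowest of all libraries. In all, 7 members were higher in every induced library than in every skip1 alone library (9.86%, against 8.31% of all genes tested), and Rps2, a small subunit protein at the entry of the messenger RNA, was the single member lower in every one (235 to 306 against 318 to 352), as were 10.7% of all genes tested. Rps2 was singled out after its values were seen.

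Several members with known roles outside the ribosome did not pass the test. Rpl5 and Rpl11, which when free of the ribosome bind and block Mdm2, had log2 differences of 0.44 (SE 0.21) and -0.01 (SE 0.21). Rps6, the classic substrate of the S6 kinase below mTOR, had 0.21 (SE 0.20). Rps27a, which is made fused to ubiquitin, had 0.25 (SE 0.25). Rpl13a, which also takes part in silencing inflammatory transcripts, had 0.36 (SE 0.27). Rpsa, also known as the laminin receptor, had 0.14 (SE 0.21) and Rps3, which also takes part in DNA repair, 0.31 (SE 0.23). Rps19 and Rps14, whose loss causes inherited and acquired anaemia in people, had 0.51 (SE 0.27) and 0.11 (SE 0.27). Rps4x and Rpl10, which are encoded on the X chromosome, had 0.11 (SE 0.24) and 0.13 (SE 0.17).

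The skip1 induced group rested in part on 1 library. In replicate 3, 63 of 71 members (88.7%) were above all 4 other skip1 induced libraries, against 21.9% of all genes tested. The members' median log2 difference from the mean of the other 4 was 0.83, from -0.07 for Rpl28 to 1.68 for Rpl35a. Rpl13a was at 375 there and at 161, 138, 155 and 178 in the others, and Rps3 was at 470 there and at 205 to 253 in the others. Of all 18 libraries, replicate 3 held the highest value of 55 of 71 members, whereas 6.4% of all genes tested had their highest value there. In this library the median was 0.85 for Spp1, the only biliary marker tested, and 0.50 for 9 macrophage markers. It was 0.43 for 8 genes of the RNA polymerase I machinery, 0.32 for 7 elongation factors, 0.09 for 39 ribosome biogenesis factors, 0.04 for 30 initiation factors, 0.20 for 70 respiratory chain subunits and 0.18 for 431 other genes with transcripts under 1000 bases. It was 0.78 for the 7 tested ribosomal protein genes that the name rule does not cover. Its summed hepatocyte markers, at 19433, were the lowest of the 18 libraries, and its summed macrophage markers, at 572, the highest of the group. Its summed biliary and neutrophil markers, at 402 and 18.1, were also the highest of the group, whose medians were 242 and 4.39; the part of cell makeup in the result was not tested.

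**Figure D2:**
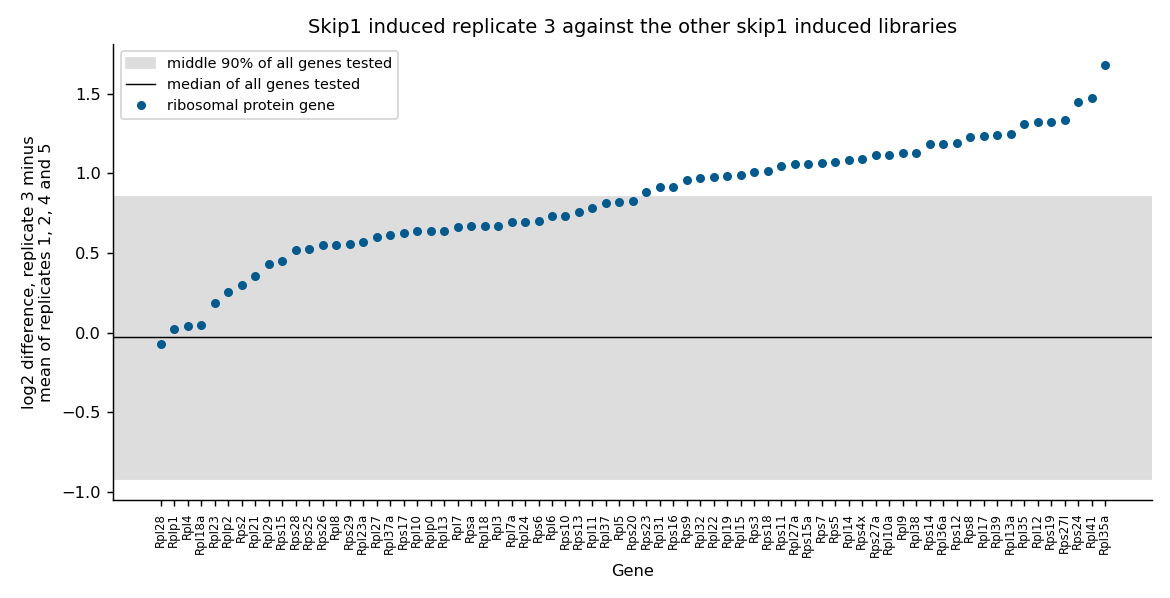
Each point is 1 of the 71 ribosomal protein genes in rank order, plotted as the log2 difference between skip1 induced replicate 3 and the mean of the other 4 skip1 induced libraries; the grey band holds the middle 90% of all genes tested (-0.92 to 0.85) and the line is their median. All members but Rpl28 lie above 0, with a median of 0.83.

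Without replicate 3, the median difference of the members between skip1 induced and skip1 alone was 0.15 instead of 0.31, and Rps16 remained the only call. The count of members called was 0 without skip1 alone replicate 2, 2 without skip1 alone replicate 1, 3 without skip1 induced replicate 1 and 4 without skip1 induced replicate 2. In the same fits 4.75%, 5.93%, 5.63% and 7.78% of all genes were called higher. Skip1 induced replicates 1 and 2 had the highest summed hepatocyte markers of their group. Leaving out both, an alternative chosen after seeing the data, gave 11 members called and a median of 0.44, with 7.4% of all genes called higher and a median of -0.03 over all genes. These 2 libraries also had the lowest member shares of their group, at 1.19% and 1.03%. Replicate 3, at 2.50%, stayed in and weighed more among the fewer libraries left, so this fit is no support for a rise.

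**Figure D3:**
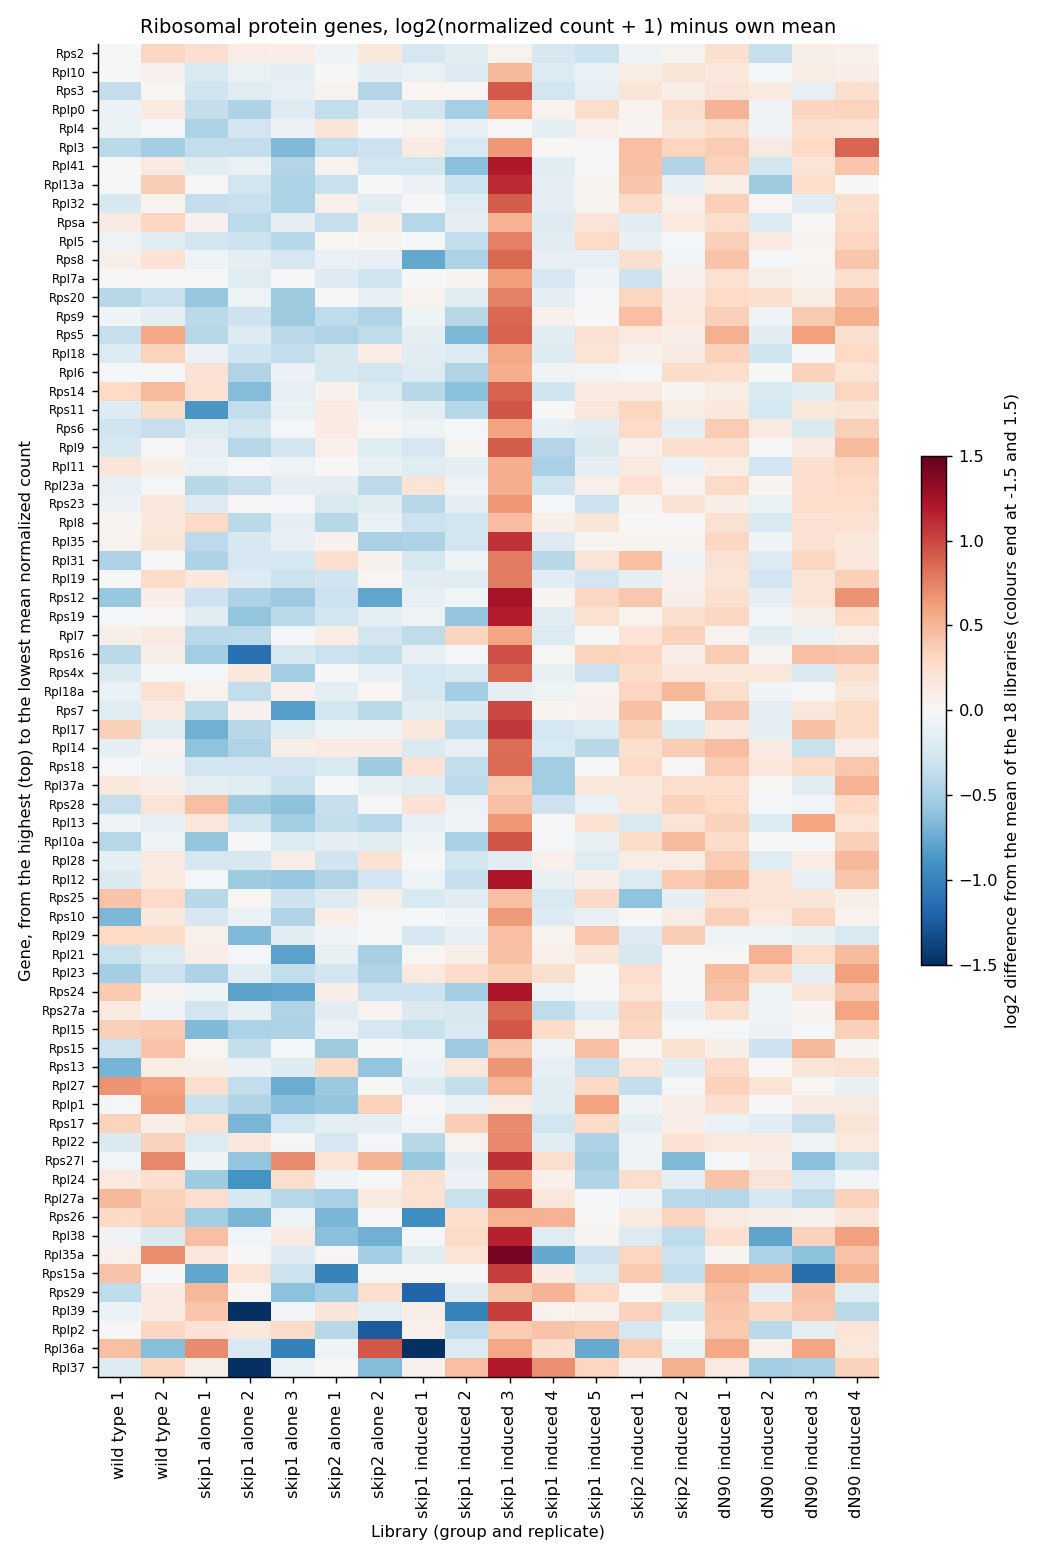
Rows are the 71 members from the highest to the lowest mean normalized count, columns are the 18 libraries, and colour is log2(normalized count + 1) minus the gene's own mean over the libraries (red higher, blue lower, ends at 1.5 and -1.5). Red fills nearly the whole column of skip1 induced replicate 3, where 68 of 71 members were above their own mean, while wild type replicate 2 had 46 and wild type replicate 1 had 21.

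The second comparison set skip2 induced against skip2 alone, with 2 libraries in each group. The median log2 difference of the members was 0.22, against -0.06 over all genes tested, and 64 of 71 were above 0. Here too the control lay below wild type. The member median on the log2 scale averaged 6.13 with skip2 alone, 6.48 in skip2 induced and 6.24 in wild type libraries, and skip2 induced was not tested against wild type. None passed the test in limma (0 of 71, against 6.52% of all genes called higher and 8.42% lower), 3 had an unadjusted p under 0.05, and 25 were called higher when the reads were scaled to library totals with voom, where 20.8% of all genes were. In 35 members (49.3%) both induced libraries were above both skip2 alone libraries, which held for 27.3% of all genes tested. The 3 members with the lowest p were Rpl3, Rps9 and Rps12. Rpl3 was at 146 and 152 with skip2 alone and at 260 and 237 in skip2 induced. The log2 difference was therefore 0.73, with an SE of 0.28 (limma adjusted p = 0.0827). Rps9, a small subunit protein at the entry of the messenger RNA, was at 98.3 and 93.4 against 176 and 142 when induced (0.72, SE 0.31, limma adjusted p = 0.127). Rps12 was at 68.2 and 49.4 against 114 and 91.1 (0.80, SE 0.37, limma adjusted p = 0.158). Rplp0 stood at 186 and 214 against 250 and 290, a difference of 0.43 (SE 0.29).

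Rps27l and Rpl5 were the 2 members with both skip2 induced libraries below both skip2 alone libraries, as were 32.6% of all genes tested. Rps27l was at 32.3 and 40.0 with skip2 alone and at 26.8 and 17.1 when induced (-0.72, SE 0.47). The 2 Rpl5 values of 149 and 151 compared with 136 and 144 (-0.10, SE 0.28). The response was also compared between the isoforms, as the difference of the 2 differences, in an alternative chosen after seeing the data. No member passed: limma called 0 of 71 and 0.167% of all genes, and 0 members had an unadjusted p under 0.05, and the median difference of differences was 0.03.

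The third comparison set the 4 dN90 induced libraries against non-tumour liver, the mean of the 3 non-tumour groups with 7 libraries. Here 10 of 71 members were called higher and 0 lower. Their share of 14.1% was not above the 17.6% of all genes tested that were called higher, and 19.9% of all genes were called lower. The members' median log2 difference was 0.26, against 0.01 over all genes, with 64 of 71 above 0 and 13 with an unadjusted p under 0.05. In 6 members (8.45%) every dN90 induced library was above every non-tumour library, against 10.1% of all genes.

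Rpl3 showed the largest difference. Its non-tumour values ran from 119 to 152 with a median of 146 over 7 libraries, and the dN90 induced libraries had 246, 208, 232 and 349. The groups did not overlap, and the log2 difference was 0.84 (SE 0.18, limma adjusted p = 0.00074). Rpl23 ran from 31.7 to 40.3 (median 35.2) in non-tumour liver and was at 63.7, 56.1, 41.4 and 70.5 in dN90 induced libraries. Replicate 3 lay only just above the highest non-tumour library, and the difference was 0.69 (SE 0.17, limma adjusted p = 0.00272). Rps16 ran from 35.7 to 83.1 (median 60.4) and was at 102, 80.6, 108 and 106 in dN90 induced libraries, where replicate 2 fell below wild type replicate 2. Its difference was 0.71 (SE 0.21, limma adjusted p = 0.0115). Rps12 ran from 49.4 to 92.2 against 101, 77.5, 99.1 and 138 (0.65, SE 0.23, limma adjusted p = 0.0327). Rps9 ran from 88.4 to 123 against 165, 121, 168 and 187 (0.61, SE 0.19, limma adjusted p = 0.0173). In both, dN90 induced replicate 2 lay inside the non-tumour range and the other 3 libraries lay above it.

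Rplp0 was also called, at 174 to 265 in non-tumour liver against 344, 232, 300 and 303 (0.47, SE 0.18, limma adjusted p = 0.0483). The other 4 calls, outside the rule for named genes, were Rpl21, Rps20, Rps18 and Rpl23a, with log2 differences from 0.44 to 0.59. Of the stalk partners of Rplp0, neither passed: Rplp1 had 0.23 (SE 0.20) and Rplp2 0.16 (SE 0.26). Rpl5 and Rpl11 had 0.36 (SE 0.18) and 0.09 (SE 0.18), Rps6 had 0.30 (SE 0.17) and Rps14 had -0.04 (SE 0.24).

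Rpl3 and Rpl23 kept their calls under every alternative run for them, and Rps16 lost its call only with wild type alone as the control. Rplp0 lost its call in 13 of 22 alternatives. The count of 10 fell to 6 without wild type replicate 1, skip2 alone replicate 2, dN90 induced replicate 1 or dN90 induced replicate 3, each left out in turn, with 13.8% to 16.6% of all genes called higher, and to 3 without dN90 induced replicate 4, with 14.1%. With wild type alone as the control, 2 members and 10.8% of all genes were called higher, and the members' median difference was 0.14. With log2 depth as a covariate 4 members and 11.9% of all genes were called higher.

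**Figure D4:**
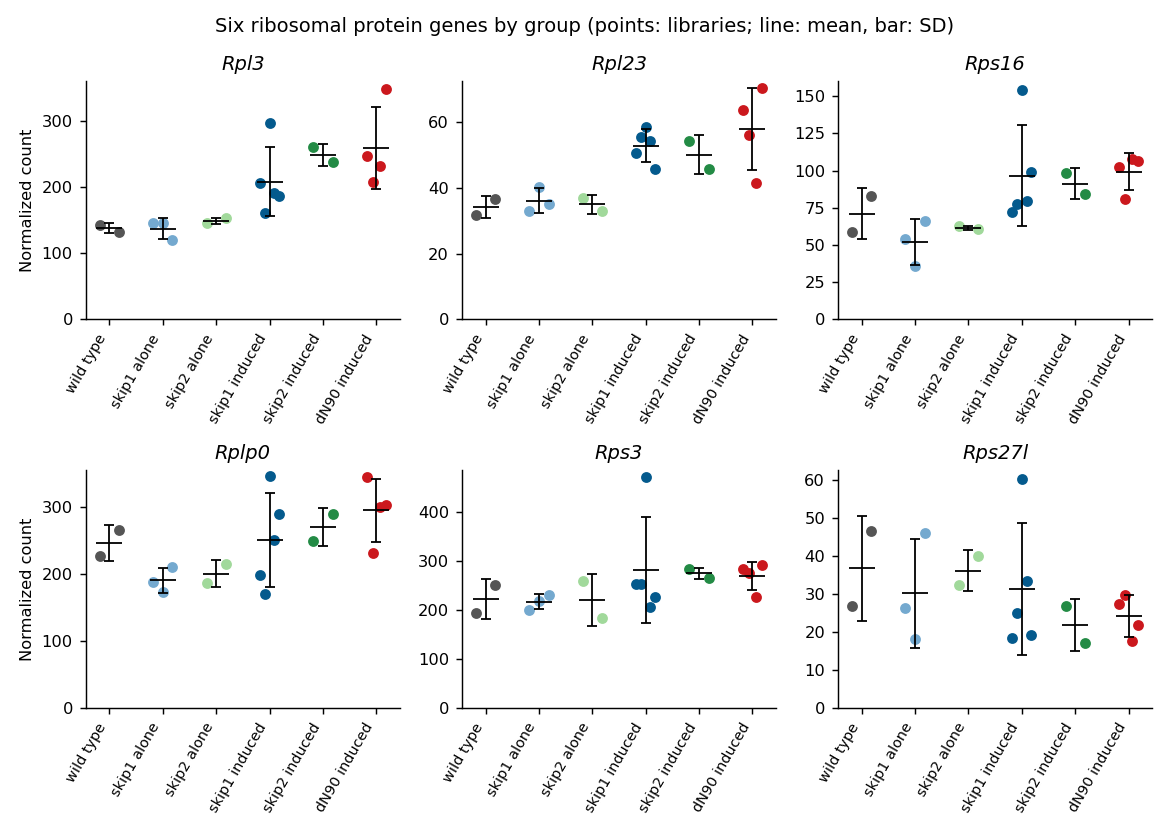
Normalized counts of 6 members in the 6 groups; points are libraries, horizontal lines are group means and bars are SDs. Rpl3 and Rpl23 have every induced library above every non-tumour library, Rps3 and Rps16 have skip1 induced replicate 3 as their highest point (470 and 154), and the Rps27l libraries overlap widely, from 17.1 to 60.4.

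How many members were called depended on how libraries were scaled. Scaling the reads to library totals (voom) moved the median of all genes tested up by 0.44, 0.53 and 0.55 in the 3 comparisons, to all-gene calls of 1229 higher and 208 lower, 1374 and 249, and 3062 and 506. Under the authors' scaling these were 432 and 539, 430 and 555, and 1158 and 1313. With voom, 39, 25 and 61 members were called higher, and 0 lower, against 18.6%, 20.8% and 46.5% of all genes called higher. Voom differs from the authors' scaling mainly by a factor per library, which cancels when the median of all genes tested is subtracted. Relative to that median, the members' median was 0.33, 0.27 and 0.25 with the authors' scaling and 0.35, 0.29 and 0.26 with voom. With quantile normalization it was 0.49, 0.53 and 0.42, with 8, 2 and 21 members called higher against 6.04%, 6.61% and 17.6% of all genes, and 56.8%, 56.1% and 50.6% of all calls were higher. This gap also depended on which genes were tested. It was 0.18, 0.08 and 0.10 with no filter on low values and 0.55, 0.60 and 0.50 with a mean of at least 50, which kept 49 members.

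Members are short: 54 of 71 had spliced lengths under 1000 bases, with a median of 780 bases against 2863 for all genes tested. The 431 other genes under 1000 bases had median log2 differences of -0.15, -0.41 and -0.37 in the 3 comparisons, and 0.31, 0.17 and 0.18 with voom. Relative to the median of all genes these were -0.12, -0.35 and -0.38, and -0.12, -0.36 and -0.38 with voom.

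To see which members departed from the rest, each value was also taken relative to the median member of its own library, in which any scaling of a whole library cancels. Only 1 of 71 members passed, Rps27l in the dN90 comparison, against 25.8% of all genes called lower in it. On this scale 13.2%, 11.4% and 33.6% of all genes were called in either direction in the skip1, skip2 and dN90 comparisons. Because the members' own median was subtracted, few calls among members are built into this scale, and these shares are not a like background. Over all genes tested, the median differences on this scale were -0.35, -0.41 and -0.30, and 74.6%, 71.8% and 67.2% of genes were below 0. The members' own median differences on it were -0.01, -0.14 and -0.05, with 39, 48 and 48 of 71 below 0. The scale was thus not centred on 0 for the set, least so with skip2. Rps27l is a relative of Rps27 whose transcription p53 is known to raise (chromosome 9, 66946086 to 66949516, plus strand). Its normalized counts were 27.0 and 46.5 in wild type, 26.4, 18.1 and 46.0 with skip1 alone, 32.3 and 40.0 with skip2 alone, and 27.4, 29.7, 17.6 and 21.8 in dN90 induced libraries. The groups overlapped, and the difference relative to the set was -0.78 (SE 0.28, limma adjusted p = 0.0344). This call was lost without wild type replicate 2, skip1 alone replicate 3, skip2 alone replicate 2, or dN90 induced replicate 1, 3 or 4. Taken by itself the difference was -0.46 (SE 0.30, limma adjusted p = 0.238), and it turned to 0.08 with voom. Relative to the set, Rps27l had -1.08 (SE 0.44, limma adjusted p = 0.119) in skip2 induced against skip2 alone and -0.31 (SE 0.32) in skip1 induced against skip1 alone. Rps2 had -0.66 (SE 0.26, limma adjusted p = 0.0915) relative to the set in skip1 induced against skip1 alone, and Rpl3 had 0.53 (SE 0.22, limma adjusted p = 0.0674) in the dN90 comparison.

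Genes of the p53 pathway are given beside Rps27l, from a list of 11, of which 8 were tested. Cdkn1a, which stops the cell cycle, rose in all 3 comparisons, with log2 differences of 3.51 (SE 0.60), 3.17 (SE 0.82) and 2.64 (SE 0.52), from means of 1.12, 0.579 and 1.12 in the controls to 24.5, 12.8 and 10.3. Bax, which promotes cell death, rose by 1.44 (SE 0.30), 1.34 (SE 0.41) and 0.98 (SE 0.26). Counted over the list, 3, 2 and 3 of 8 were called higher and none lower, against 6.55%, 6.52% and 17.6% of all genes called higher.

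Between the tumour groups, 0 of 71 members were called in any of the 3 comparisons, while 3.53% of all genes were called between skip1 and skip2 induced, 4.63% between skip1 and dN90 induced and 3.03% between skip2 and dN90 induced. Voom called 0 as well. At an unadjusted p under 0.05 there were 1, 0 and 1 members. The members' median differences were -0.04 (skip1 minus skip2), -0.11 (skip1 minus dN90) and -0.07 (skip2 minus dN90). Half-widths of the 95% intervals for single members had medians of 0.57, 0.46 and 0.59 and ran from 0.39, 0.31 and 0.40 upward. The first median was -0.24 without skip1 induced replicate 3, 0.02 without replicate 2 and 0.01 without replicate 4. The second was -0.26 without replicate 3 and -0.05 without replicate 2, and the third was 0.01 without dN90 induced replicate 4.

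The isoforms alone were each set against wild type. With skip1 alone, the members' median log2 difference was -0.27, against 0.01 over all genes, and 63 of 71 were below 0. No member was called (0 of 71, and 0% of all genes in either direction; 5 members with an unadjusted p under 0.05; 0 with voom). All 3 skip1 alone libraries were below both wild type libraries in 26 members (36.6%), against 8.13% of all genes tested, and above both in 2 members, against 9.69%. With skip2 alone the median was -0.20, against 0.03, with 53 of 71 below 0 and none called (0.0152% of all genes were called; 2 members with an unadjusted p under 0.05; 0 with voom). In 29 members (40.8%) both libraries were below both wild type libraries, against 14.8% of all genes, and in 7 members both were above, against 20.7%. These 2 comparisons share the wild type libraries, whose replicate 2 had a higher member share (1.11%) than replicate 1 (0.936%). Without replicate 2 the medians were -0.17 and -0.13.

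Rpl27, named after its values were seen, had the lowest p of members against wild type with skip2 alone: it was at 55.5 and 53.2 in wild type, at 41.1, 26.5 and 20.2 with skip1 alone and at 23.1 and 34.3 with skip2 alone. All 5 isoform-alone libraries were below both wild type libraries. The log2 differences were -0.93 (SE 0.31) and -0.92 (SE 0.34), with limma adjusted p = 1.00 and 0.923. Rplp1 was at 32.8 and 52.4 in wild type and at 26.3, 24.2 and 21.3 with skip1 alone (-0.77, SE 0.29, limma adjusted p = 1.00). Rps6 went the other way without passing: it was at 88.4 and 85.6 in wild type, at 95.4, 89.7 and 108 with skip1 alone and at 119 and 111 with skip2 alone.

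Genes that build or use the ribosome were compared over lists, which were not tested as sets. Of all genes tested, 6.55%, 6.52% and 17.6% were called higher in the skip1, skip2 and dN90 comparisons, and 8.18%, 8.42% and 19.9% lower. The counts here and for the later lists are to be read against these shares. In the order skip1, skip2 and dN90 against their controls, 1, 2 and 7 of 39 ribosome biogenesis factors were called higher and 0, 1 and 1 lower, with medians of -0.08, -0.07 and 0.13 (0.37, 0.52 and 0.75 with voom, -0.20, -0.16 and 0.02 with quantile normalization). Pes1, needed to process the RNA of the large subunit, rose by 1.25 (SE 0.28) with skip1 and 1.23 (SE 0.24) with dN90. Rrp1, a nucleolar processing factor, rose by 0.92 (SE 0.30) with skip2 and 0.86 (SE 0.19) with dN90. Tsr1, which acts in small subunit assembly, fell by 2.27 (SE 0.39) with skip2, with means of 179 ± 130 (SD, n = 2) and 742 ± 16.5, and by 1.16 (SE 0.24) with dN90, with means of 319 and 735. Of 8 genes of the RNA polymerase I machinery, 0, 0 and 1 were called, the last being Polr1a (0.61, SE 0.19).

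Of 30 initiation factors, 1, 0 and 2 were called higher and 1, 0 and 6 lower, with medians of -0.07, -0.15 and -0.09 (0.40, 0.45 and 0.48 with voom, 0.10, 0.12 and 0.05 with quantile normalization). Eif6, which keeps the large subunit from joining too early, rose by 0.77 (SE 0.20) with skip1 and 1.34 (SE 0.17) with dN90. Its levels were 23.8 and 41.0 with skip1 alone and induced, and 25.4 and 66.1 in non-tumour and dN90 induced liver. Among 7 elongation factors, 0, 0 and 1 were called higher and 1 lower with dN90: Eef2, which moves the ribosome along, rose by 0.49 (SE 0.18) and Eif5a fell by 0.61 (SE 0.17). Of 8 other TOP transcripts, 1, 1 and 2 were called higher and none lower, namely Nap1l1 with skip1 (0.83) and dN90 (0.90), Gas5 with skip2 (0.91) and Npm1 with dN90 (0.60). Of the 7 ribosomal protein genes outside the name rule, only Rps27rt passed, with dN90 (0.49, SE 0.19). Of 19 regulators of Myc and mTOR signalling, none rose and 3, 0 and 4 fell, among them Larp4 and Rptor, a subunit of the mTOR complex, with skip1 (-0.73 and -0.67) and dN90 (-0.88 and -0.73). With voom, neither was called, and 3, 2 and 3 other genes of this list were called higher, as were 1229, 1374 and 3062 of the 6592 genes tested.

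Nuclear genes of the mitochondria went the other way from the members. Of 70 respiratory chain subunits, 24, 15 and 59 were called lower and none higher, and the medians were -0.67, -0.82 and -0.95. They were -0.22, -0.25 and -0.41 with voom, where 2, 1 and 20 were called lower and 0, 0 and 2 higher. Of 33 mitochondrial ribosomal protein genes, 1, 2 and 8 were called lower, and their medians of -0.37, -0.42 and -0.37 turned to 0.10, 0.11 and 0.10 with voom. Relative to the median of all genes they were -0.34, -0.37 and -0.38, and -0.34, -0.42 and -0.45 with voom. Cytosolic and mitochondrial ribosomal protein genes thus lay on opposite sides of the all-gene median. Voom is no separate check of this, because subtracting that median removes most of what it changes.

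**Figure D5:**
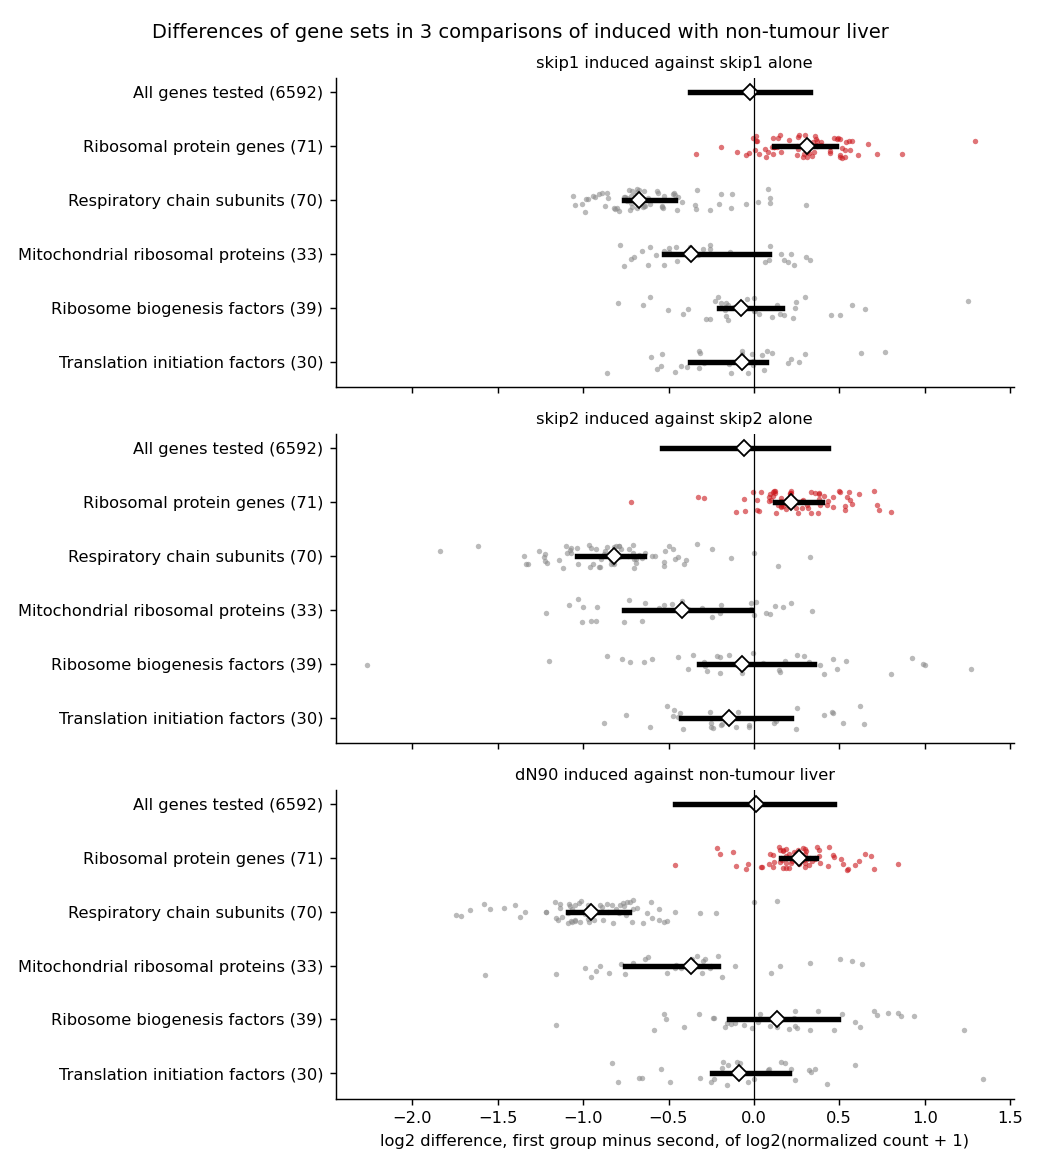
Log2 differences of single genes (points) with the median (diamond) and the middle 50% (bar) for the 71 cytosolic ribosomal protein genes, 4 other lists and all 6592 genes tested, in the 3 comparisons of induced with non-tumour liver; numbers in brackets are genes per set. The ribosomal protein genes centre at 0.31, 0.22 and 0.26 and the respiratory chain subunits at -0.67, -0.82 and -0.95.

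Markers of cell types moved in the same comparisons, and their part in the values of the members was not tested. Of 15 hepatocyte markers, 9, 6 and 11 were called lower and 0 higher; with quantile normalization 2, 2 and 7 were lower and 3, 2 and 3 higher, and with voom 9, 6 and 9 were lower and 0, 2 and 2 higher. Of 9 macrophage markers tested, 6, 1 and 4 were called higher (1 lower with dN90). The summed normalized count of all 10 on the list was 235 to 346 in non-tumour, 340 to 572 in skip1 induced, 453 to 494 in skip2 induced and 293 to 457 in dN90 induced libraries. Of 6 stellate and fibroblast markers tested, 3, 3 and 3 were called higher and 0, 1 and 2 lower. The sums of all 8 on the list were 149 to 236 in non-tumour libraries and 243 to 348, 393 to 444 and 122 to 271 in the induced groups. The biliary list rested on Spp1, which rose in all 3 comparisons, and its sums were 5.21 to 27.8 in non-tumour libraries and 73.5 to 659 in induced ones. Krt7 and Epcam were at 0 in wild type, Krt19 and Epcam with skip1 alone, and Krt7, Krt19 and Sox9 with skip2 alone. The lymphocyte list rested on Ptprc (called higher with skip1 and dN90), and no neutrophil marker reached the mean of 10. Of 6 endothelial markers 2 were called lower with dN90, and of 4 erythroid markers Alas2 was lower in all 3 comparisons.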

How the data were processed

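Normalized counts, a signal per gene that the authors scaled between libraries, make up the first deposited table; per the submitters' processing notes the tools were FastQC, STAR, RSEM and DESeq2, on mm10, and a strand-specific library protocol, with versions not given in the sources used here. The second deposited table held z-scores, a score that the values show to be centred and scaled per gene. The number of unused sample columns was 0. In each library 59.3% to 60.5% of the values were whole multiples of 1 step (tolerance 0.001); estimated reads are the column sum divided by that step, and counting error at this depth limits low genes. Genes with a mean of at least 10 (6592) were tested with limma 3.58.1 in R 4.3.3 on log2(normalized count + 1), with 1 coefficient per group over all 18 libraries, a prior variance that follows the mean and two-sided tests, adjusted by Benjamini-Hochberg over all genes tested; calls are adjusted p under 0.05. Differences on this scale understate the change of low genes. Scripts were tested on simulated data.

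Members, lists and tests were chosen with earlier results of these data known. Named members were fixed by role (18 symbols), as up to 5 calls per direction and comparison, and as the 2 members on each side of the threshold; from other lists up to 3 calls per direction were named. Alternatives changed the pseudocount, filter, scaling, groups fitted, weights, depth covariate and control, and left out each library. Lengths and coordinates come from the GENCODE annotation of mm10 and cover 98.3% of the symbols. RefSeq promoters span 250 bases before to 50 after the start. Replicate numbers follow accession order and pair nothing.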

Additional observations from a re-analysis of the deposited data

Results flagged for a closer look

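Among 48 groups of 4 or 5 libraries examined, 11 held 1 library that stood apart by Dixon's criterion at 95%, where chance gives about 1 in 20. The groups share libraries and the members move together, so these are not independent. In all 11 it was skip1 induced replicate 3, the highest of its group. The set median stood at 7.04 on the log2 scale, with the next library at 6.30, and the members' share of the total at 2.50%, with the next at 1.45%. Single members with such a gap were Rps3 (normalized count 470, next 253), Rpl10 (408, next 271), Rpl13a (375, next 178), Rps9 (233, next 134), Rps12 (203, next 106), Rps6 (166, next 107), Rpl11 (152, next 94.8), Rps4x (144, next 73.1) and Rps27a (80.8, next 39.4).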

How the results depend on the processing

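No paired analysis was possible because replicate numbers follow accession order and tie no library of one group to another. Differences that did not pass changed sign in places: the members' median between skip1 and skip2 induced (-0.04) reached 0.02, and between skip2 and dN90 induced (-0.07) 0.01, without 1 library, and Rps27l by itself in the dN90 comparison (-0.46) was 0.08 with voom. The medians of mitochondrial ribosomal protein genes, initiation factors and other short transcripts also changed sign with voom. Rpl3 and Rpl23 kept their calls in the dN90 comparison under every alternative run for them. Where a value moved, the cause was not tested, except that leaving out libraries leaves fewer samples.

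In skip1 induced against skip1 alone, the 1 member called became 2 with a mean of at least 50, with array weights or with the depth covariate, 8 with quantile normalization, 39 with voom and 0 with only the groups compared. It ranged from 0 to 4 without 1 library and was 11 without induced replicates 1 and 2, an alternative chosen after seeing the data that kept replicate 3. Relative to the set, 0 became 1 with a mean of at least 50, array weights, voom or without replicates 1 and 2, and ranged from 0 to 1 without 1 library. The median was 0.79 with voom.

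In skip2 induced against skip2 alone, 0 called became 2 with quantile normalization, 1 with array weights and 25 with voom. Relative to the set, 0 became 1 with only the groups compared and 2 with array weights. The median of 0.22 was 0.21 with a pseudocount of 5, 0.26 with a mean of at least 50, 0.23 with upper-quartile scaling, 0.53 with quantile normalization, 0.28 with the depth covariate, 0.82 with voom and 0.25 to 0.29 without 1 library.

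In dN90 induced against non-tumour liver, 10 called became 21 with quantile normalization, 4 with the depth covariate, 61 with voom, 2 with wild type alone as control and 3 to 10 without 1 library. Relative to the set, 1 became 0 with no filter, the depth covariate or wild type alone, 2 with a mean of at least 50 or voom, 3 with quantile normalization or only the groups compared, 5 with array weights, and 0 to 1 without 1 library. The median was 0.44 with quantile normalization, 0.82 with voom and 0.14 with wild type alone. For skip2 alone against wild type it was -0.37 with voom. At this depth 12 of 71 members had a median under 30 reads, which limits their precision. Over all alternatives, 4.13% to 18.6%, 2.84% to 20.8% and 10.8% to 46.5% of all genes were called higher in the skip1, skip2 and dN90 comparisons.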
